A study of Mus musculus with 6 samples.

Results

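The regions described here are the megabase of chromosome 11 on each side of the mouse α-globin locus. The upstream flank was taken as chr11:31070001-32070000 and the downstream flank as chr11:32250001-33250000 of mm9, and the 180 kb between them, which hold the α-globin genes and their enhancers, are called the core. A contact was counted for a flank when the midpoint of at least 1 of its fragments lay there. Of 349609 contacts on chromosome 11 in 12 tables, 50948 touched a flank: 33339 the upstream flank, 18883 the downstream flank and 1274 both. In 10 kb bins, the flanks are 200 of 12185 bins on the chromosome.

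Tri-C was performed in primary erythroid cells, selected for Ter-119 on magnetic beads. Spleens came from female mice of the C57BL/6 strain given phenylhydrazine, which induces anaemia and thereby expands erythroid cells in the spleen. Wild type (WT) mice were compared with D3839 mice, a line that carries small engineered deletions of the CTCF-binding motifs HS-38 and HS-39. Each genotype had 3 biological replicates, and the contacts of every replicate were read from both the R2 enhancer of α-globin and the *Mpg* promoter, which gives 12 libraries. Age was not given in the sources used here, and the labels do not tie a replicate to an animal. Contact counts hold no expression values, so the cell type was not checked against its markers, nor the genotype against the deleted bases.

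Chromosome conformation capture joins DNA fragments that lay close together in the fixed nucleus, and contact frequency usually decays with distance along the chromosome. Topologically associating domains interrupt this decay: cohesin extrudes chromatin loops until it meets CTCF at a boundary, so that contacts within a domain exceed those across its edge. In Tri-C, a contact is a pair of fragments found together with the viewpoint in a single read, so a flank fragment recorded here met the viewpoint and a further fragment at the same allele. The upstream flank holds *Cpeb4*, a regulator of mRNA translation in terminal erythroid differentiation, and *Bod1*, which acts in chromosome biorientation. The downstream flank holds most of *Sh3pxd2b*, an adaptor protein of podosomes, the kinase gene *Stk10*, *Fbxw11*, an F-box subunit of an SCF ubiquitin ligase, and *Npm1*, which encodes the nucleolar protein nucleophosmin.

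The unit of measurement is an NlaIII fragment. The 4 fragments below show what a flank contact with the core consists of. They come from the nearest 100 kb window of each flank and from the leading window beyond 200 kb from the viewpoints. In each window, the fragment seen with a core partner in the most libraries was taken. Only short fragments, below a set length, were considered, so longer ones can have been seen in more libraries. Sequences are from the plus strand of mm9, and capitals mark the CATG sites cut by NlaIII at both ends.
chr11:32065654-32065728: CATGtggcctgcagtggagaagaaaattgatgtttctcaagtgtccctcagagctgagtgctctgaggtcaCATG
chr11:31735540-31735725: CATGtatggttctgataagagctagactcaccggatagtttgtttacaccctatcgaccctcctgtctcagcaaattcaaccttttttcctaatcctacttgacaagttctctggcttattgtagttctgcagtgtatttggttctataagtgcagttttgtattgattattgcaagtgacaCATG
chr11:32250869-32250934: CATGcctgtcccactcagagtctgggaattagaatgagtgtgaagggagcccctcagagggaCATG
chr11:32542129-32542377: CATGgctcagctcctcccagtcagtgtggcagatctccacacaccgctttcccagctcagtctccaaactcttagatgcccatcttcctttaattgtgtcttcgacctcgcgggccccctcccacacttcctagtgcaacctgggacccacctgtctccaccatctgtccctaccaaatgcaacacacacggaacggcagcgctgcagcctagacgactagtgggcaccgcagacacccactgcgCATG
The first, an intergenic fragment at the edge of the upstream flank, met a core fragment in 9 of 12 libraries, with 3 counts over the R2 libraries and 16 over the *Mpg* libraries. The second lies in an intron of the non-coding gene *Gm12107* and met the core in 8 libraries, with 9 counts for R2 and 13 for *Mpg*. The third lies in an intron of *Sh3pxd2b* and did so in 7 libraries (4 and 11 counts). The fourth is intergenic, beside the start of *Fbxw11*, and did so in 6 libraries (8 counts for each viewpoint). Counts of these single fragments are small, and all comparisons below were made on bins, windows or flanks. The choice of these fragments rests on their counts, which are given as a description.

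R2 libraries held between 18823 and 26893 chromosome 11 contacts, *Mpg* libraries between 31203 and 39540. No flank pair was counted more than 13 times in a library. Per library, 1852 to 3509 contacts touched a flank for R2 and 5150 to 7729 for *Mpg*. A bin with no count can hold up to 0.0159% of contacts at the shallowest R2 library and up to 0.00961% at the shallowest *Mpg* library, taking 3 counts as the upper limit of a count of 0. These limits cover counting error only, since contacts from the same read are not independent. They are percents of contacts, whereas bin levels below are percents of fragment ends, on which scale the limits are lower. The NEBNext kit of the WT libraries was not that of the D3839 libraries, and the 2 factors cannot be told apart in any comparison between genotypes. In a population of cells, contacts in fewer cells and rarer contacts in every cell cannot be told apart either.

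Both flanks took a smaller share of contacts in D3839 than in WT from both viewpoints. From R2, the upstream flank held 7.01%, 6.78% and 8.78% of chromosome 11 contacts in WT replicates 1 to 3 and 5.09%, 6.05% and 5.56% in D3839. The means were 7.52% ± 1.09 and 5.57% ± 0.479, 1.35-fold higher in WT, where a value after ± is the SD over n = 3 replicates here and wherever no SE is named. From R2, the downstream flank held 3.54%, 3.76% and 4.54% in WT and 2.83%, 3.16% and 2.88% in D3839, a 1.34-fold difference between the means. WT replicate 3 was the highest library of the R2 viewpoint in both flanks.

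From *Mpg*, the upstream flank held 12.6%, 13.5% and 12.2% in WT and 9.89%, 10.8% and 10.1% in D3839, and the means of 12.8% ± 0.659 and 10.2% ± 0.458 differed 1.25-fold. The downstream flank showed the widest gap. It held 8.05%, 8.83% and 7.83% of *Mpg* contacts in WT and 5.02%, 5.33% and 5.19% in D3839, means of 8.24% ± 0.526 and 5.18% ± 0.152 that differed 1.59-fold. In none of the 4 comparisons did the genotypes overlap. The two-sided exact permutation test gave p = 0.1 for each, the smallest value that 3 against 3 libraries allow, and 0.1 after Benjamini-Hochberg adjustment over the 4, so none could pass 0.05.

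**Figure D1:**
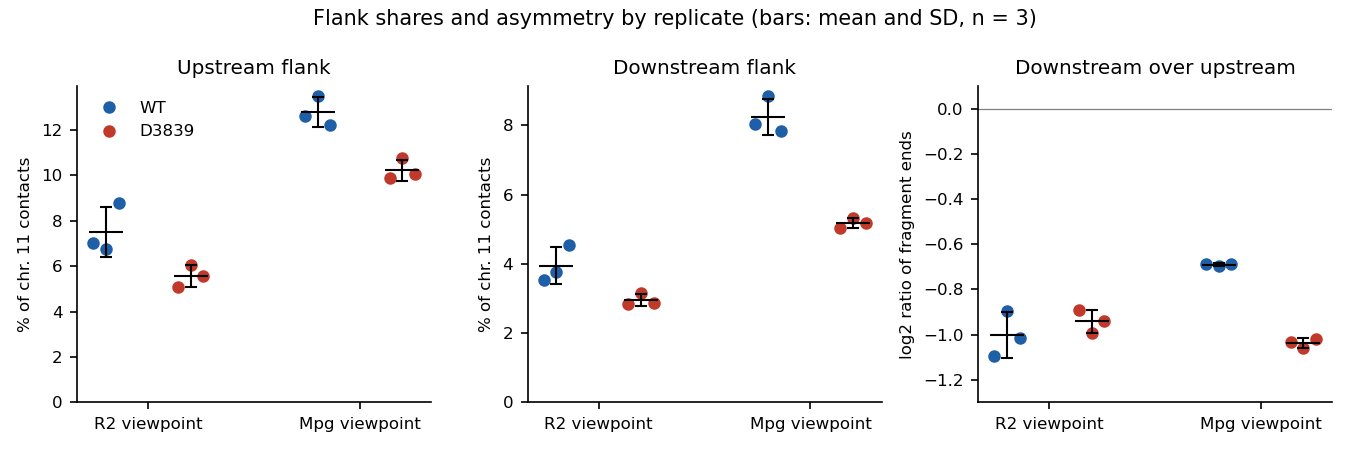
Share of chromosome 11 contacts that touch the upstream flank (left) and the downstream flank (middle), and log2 ratio of downstream over upstream fragment ends (right), for each of 12 libraries, with the mean and SD of 3 replicates. Within a viewpoint, D3839 points lie below WT points in both shares, and in the ratio the genotypes separate for the *Mpg* viewpoint, at -0.69 in WT and -1.04 in D3839.

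These shares move with the core, which took more contacts in D3839. Pairs with both ends in the core made up 48.5% to 50.2% of R2 contacts in WT and 66.6% to 70.3% in D3839, and 33.2% to 41.5% against 50.1% to 54.5% of *Mpg* contacts. With all contacts that touched the core left out of flank count and total, the direction turned for 3 of the 4 shares. From R2, the upstream flank then stood at 15.7% ± 2.09 in WT and 17.3% ± 0.826 in D3839, and from *Mpg* at 21.1% ± 0.437 and 21.5% ± 0.200. From R2, the downstream flank then stood at 8.44% ± 1.15 (WT) and 10.25% ± 0.291 (D3839), without overlap between the WT maximum of 9.76% and the D3839 minimum of 9.94% (exact permutation p = 0.1). For the downstream flank from *Mpg*, WT stayed higher on that scale too, at 13.7% ± 0.418 against 11.9% ± 0.0470, again without overlap (exact permutation p = 0.1).

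The flanks were unequal in all libraries, with 1.61 to 2.14 times as many fragment ends upstream as downstream. Core contacts do not enter this ratio as a denominator. From R2, the log2 ratio of downstream over upstream ends was -1.10, -0.90 and -1.01 in WT and -0.89, -0.99 and -0.94 in D3839, and the genotypes overlapped (exact permutation p = 0.4). From *Mpg*, it was -0.69, -0.70 and -0.69 in WT and -1.03, -1.06 and -1.02 in D3839. The D3839 libraries of *Mpg* were thus more upstream-weighted than any WT library of that viewpoint, with means of -1.04 ± 0.020 and -0.69 ± 0.0072, an exact permutation p of 0.1 and an adjusted p of 0.2 over 2 tests. The *Mpg* viewpoint itself is nearer to the upstream flank (56.9 kb) than to the downstream flank (123.1 kb), and R2 lies at 81.0 kb and 99.0 kb.

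By the slope over all bins of a flank, contacts were steeper in decay downstream than upstream. The slope was taken from a Poisson regression of the ends per 10 kb bin on the logarithm of distance, so that it is the exponent of the decay. From R2, the mean slope was -0.63 ± 0.078 upstream and -1.13 ± 0.109 downstream in WT, and -0.67 ± 0.026 and -1.02 ± 0.129 in D3839. From *Mpg*, it was -0.85 ± 0.039 upstream and -1.59 ± 0.179 downstream in WT, and -0.72 ± 0.049 and -1.36 ± 0.059 in D3839. Every one of the 12 libraries had the steeper slope downstream. The contrast was smaller under other fits. Between 200 and 1000 kb, the R2 slopes in WT lay between -1.16 and -0.90 upstream, with a downstream mean of -1.21, and the D3839 means were -1.09 upstream and -1.14 downstream. *Mpg* slopes over these distances were -1.17 and -1.62 in WT and -1.26 and -1.45 in D3839. By least squares on 50 kb windows the R2 slopes were -1.04 and -1.22 in WT and -1.14 and -1.13 in D3839. Between genotypes, only the upstream slope of *Mpg* did not overlap, at -0.87, -0.88 and -0.81 in WT against -0.71, -0.68 and -0.77 in D3839 (exact permutation p = 0.1, adjusted p = 0.4 over 4 tests). Restricted to bins 200 to 1000 kb from the viewpoint, that difference reversed in sign, from 0.13 to -0.084.

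The upstream flank did not decay evenly. Its contacts were high again between *Bod1* and *Cpeb4*, with a trough between that stretch and the locus. In 100 kb windows, the level is the percent of all chromosome 11 fragment ends that lie in the window. From R2, the window from 31670001 to 31770000, which holds the non-coding genes *D630024D03Rik* and *Gm12107* and has its near edge 381 kb from the viewpoint, held 1.76%, 1.73% and 1.86% of ends in WT and 1.44%, 1.27% and 1.12% in D3839. It was the highest window of the upstream flank in both genotypes. The window nearest to the locus, from 31970001 to 32070000, held 0.853%, 0.704% and 0.985% in WT and 0.542%, 0.693% and 0.764% in D3839. The trough between them, the window from 31870001 to 31970000 with *Nsg2*, a neuronal gene, held 0.444%, 0.244% and 0.402% in WT and 0.251%, 0.276% and 0.241% in D3839.

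From *Mpg*, the same elevation stood beside a stronger nearest window. The window nearest to the locus held 2.31%, 2.72% and 2.31% of ends in WT and 1.43%, 1.52% and 1.71% in D3839. The window from 31670001 held 1.59%, 1.89% and 1.79% in WT and 2.02%, 1.98% and 2.08% in D3839, and so went from second place in the flank in WT to first in D3839. The 3 windows from 31570001 to 31870000 together held 62.6% ± 0.437 of upstream ends in WT and 63.4% ± 3.43 in D3839 from R2, and 49.8% ± 1.59 and 61.0% ± 2.10 from *Mpg*. Per library, the *Mpg* values were 49.2%, 48.6% and 51.6% in WT and 63.4%, 59.8% and 59.7% in D3839. The elevation was noticed in these data, so its size is given without a test.

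In every library the elevated window held more ends than the trough window, which is nearer to the viewpoint and has about as many NlaIII fragments (606 against 613). The ratio of their ends was 3.96, 7.07 and 4.63 in WT and 5.74, 4.60 and 4.65 in D3839 from R2. From *Mpg*, it was 1.65, 2.00 and 2.07 in WT and 4.35, 3.94 and 3.56 in D3839. Downstream, the corresponding ratio of the window from 32450001 to the one from 32350001 lay between 0.857 and 2.54 from R2 and between 0.864 and 1.24 from *Mpg*, so that the libraries fell on both sides of 1. The mean of this downstream ratio was 1.53 in WT and 1.22 in D3839 from R2, and 1.05 and 1.09 from *Mpg*. The downstream flank had a shoulder near the start of *Fbxw11*.

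**Figure D2:**
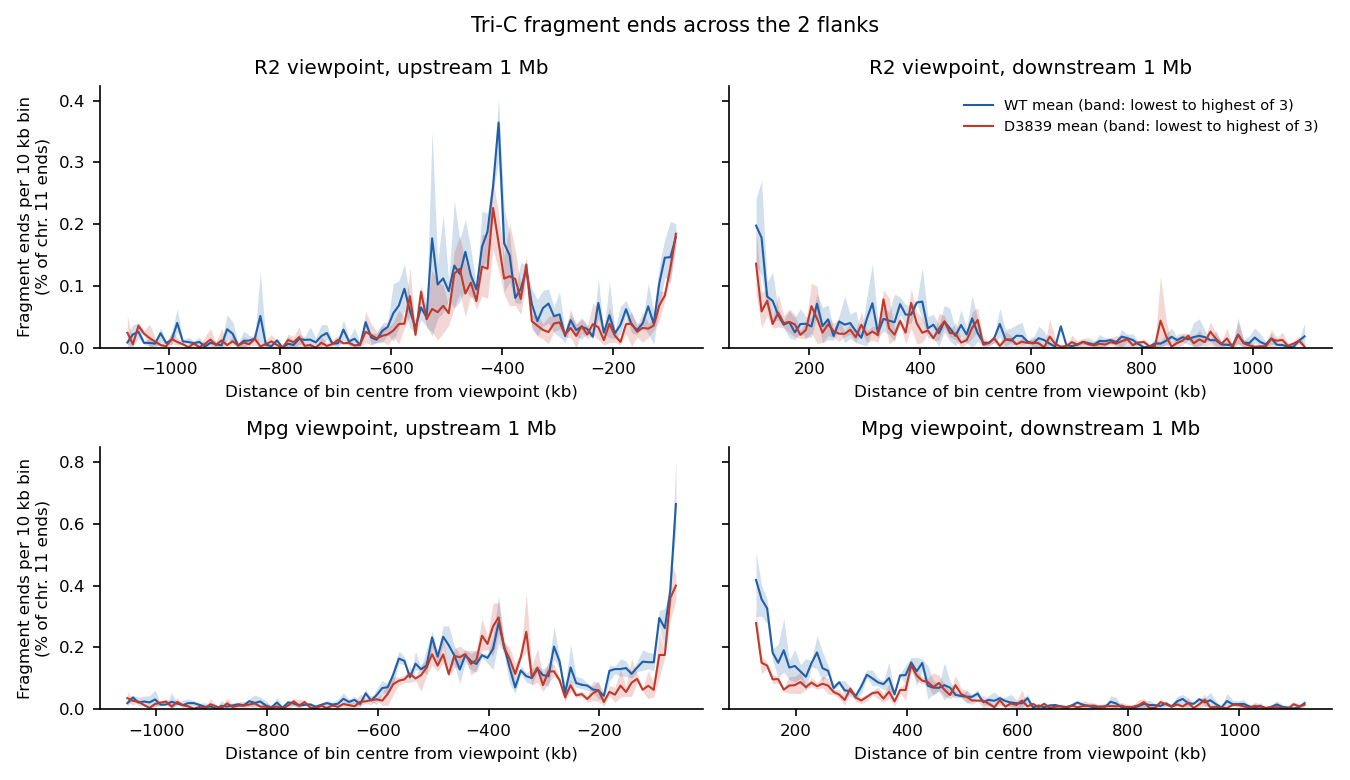
Fragment ends per 10 kb bin, as percent of chromosome 11 ends, against distance of the bin from the viewpoint in kb, for the upstream flank (left) and the downstream flank (right) of R2 (top) and *Mpg* (bottom). Lines are means and bands the lowest to highest of 3 replicates. Upstream, levels are high again between 281 and 581 kb from R2 and between 256.9 and 556.9 kb from *Mpg*. Downstream, they mostly decline from the locus outward, apart from a shoulder near the start of *Fbxw11*. By group mean, the window of that shoulder, from 32450001, exceeds the nearer window from 32350001.

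At 10 kb, the highest bins relative to the fitted decay were the same for both viewpoints. The bin from 31740001 held 5.41 times the fitted ends for R2 and 3.59 times for *Mpg*, and its neighbour from 31730001, which holds *Gm12107*, 5.12 and 2.93 times. From R2, the bin from 31740001 took 0.389%, 0.404% and 0.301% of ends in WT and 0.168%, 0.125% and 0.217% in D3839, and its genotypes did not overlap, but the difference did not pass the test (log2 -1.10 ± 0.35 SE, edgeR adjusted p = 0.167). Downstream, the bin from 32530001, just before the start of *Fbxw11*, was highest, at 2.53 times the fitted ends for R2 and 3.10 for *Mpg*. The bin from 31740001 also holds 103 NlaIII fragments, the most of any flank bin. Ratio and fragment number were related across the 100 upstream bins (Spearman rho 0.325 for R2 and 0.398 for *Mpg*) and hardly across the downstream bins (0.0926 and 0.0545). The bins share libraries, and both ends of a read can lie in 1 bin.

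No bin met the rule for a sharp local peak, which asked for more than 2 times the median of the 5 bins on either side in all 6 libraries of a viewpoint. The upstream elevation spanned many bins. Bins overlapping a gene stood higher than other bins. The 29 upstream bins with a gene had a median ratio to the fitted decay of 0.733 for R2 and 0.925 for *Mpg*, against 0.492 and 0.51 for the bins without. Downstream, where 71 of 100 bins overlap a gene, the medians were 1.0 and 1.04 against 0.597 and 0.634. The core of the CTCF motif, searched as CCNNNAGGNGGC on both strands, was found in 56 of 200 flank bins (28.0%) and in 25.19% of all complete bins of the chromosome. Flank bins with the motif had median ratios of 0.446 (R2) and 0.466 (*Mpg*) upstream and 1.03 and 0.932 downstream, against 0.599, 0.615, 0.809 and 0.802 for bins without it. A match of these letters says nothing of CTCF occupancy, which was not analysed here.

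Of the 15 protein-coding genes that start in the flanks, 6 lie upstream and 9 downstream. Their levels were read from the 10 kb bin of the start, again as the ratio to the fitted decay over 6 libraries. Upstream, *Cpeb4* led for R2 at 1.90 (265 ends) and *Bod1* for *Mpg* at 2.09 (535 ends), where *Cpeb4* was at 1.06. *Bod1* was at 1.77 for R2. These ratios sum the genotypes, whose mean levels differed in order. From R2, the bins of *Bod1* and *Cpeb4* held 0.0954% ± 0.0377 and 0.0805% ± 0.00839 of ends in WT, and 0.0387% ± 0.00972 and 0.111% ± 0.0446 in D3839. From *Mpg*, they held 0.156% ± 0.0134 and 0.0702% ± 0.0189 in WT, and 0.0962% ± 0.0119 and 0.114% ± 0.0320 in D3839. *Gm17332* followed at 0.504 and 0.870, then *Nsg2* (0.376 and 0.437) and *4930524B15Rik* (0.325 and 0.418). *Stc2*, which encodes the secreted glycoprotein stanniocalcin 2, was lowest for both viewpoints, at 0.111 with 9 ends for R2 and 0.313 with 57 ends for *Mpg*.

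Downstream, *Fbxw11* was highest for both viewpoints, at 2.24 (153 ends) for R2 and 2.57 (496 ends) for *Mpg*. *Npm1*, 912.2 kb from R2 and 936.3 kb from *Mpg*, was second at 1.33 and 1.92. *Fgf18*, a fibroblast growth factor gene, was at 1.26 for R2 but 0.719 for *Mpg*, on 36 and 43 ends. *Gm10462* was at 1.14 and 1.31, the homeobox gene *Tlx3* at 1.05 and 1.21, *Ubtd2* at 1.05 and 1.04 and *1700008A04Rik* at 0.787 and 0.618. *Efcab9* and *Stk10* start in the same bin, which was lowest at 0.609 and 0.549. These levels count few ends for the far genes, so the order of the middle genes is not settled. WT replicate 3 alone gave 22 of the 36 R2 ends of *Fgf18* and 40 of the 66 *Mpg* ends of *Tlx3*.

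Between genotypes, the start bins of the 3 leading genes did not pass the test. From *Mpg*, the bin of *Bod1* held 0.154%, 0.144% and 0.171% of ends in WT and 0.0852%, 0.109% and 0.0945% in D3839 (log2 -0.70 ± 0.37 SE, edgeR adjusted p = 0.444), without overlap. The bin of *Cpeb4* held 0.0504%, 0.0881% and 0.0721% in WT and 0.108%, 0.0857% and 0.149% in D3839 (log2 0.70 ± 0.42 SE, edgeR adjusted p = 0.591), where the genotypes overlapped. For *Fbxw11* the difference from *Mpg* was -0.18 ± 0.38 (SE, edgeR adjusted p = 0.974). From R2, where no flank bin passed, the bin of *Fbxw11* held 0.0719% to 0.0744% of ends in WT and 0.00623% to 0.0577% in D3839. The bin of *Bod1* held 0.0611% to 0.136% in WT and 0.0318% to 0.0499% in D3839 from R2, so neither of these bins overlapped. The bin of *Cpeb4* did overlap from R2, at 0.0725% to 0.0892% and 0.0686% to 0.158%.

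**Figure D3:**
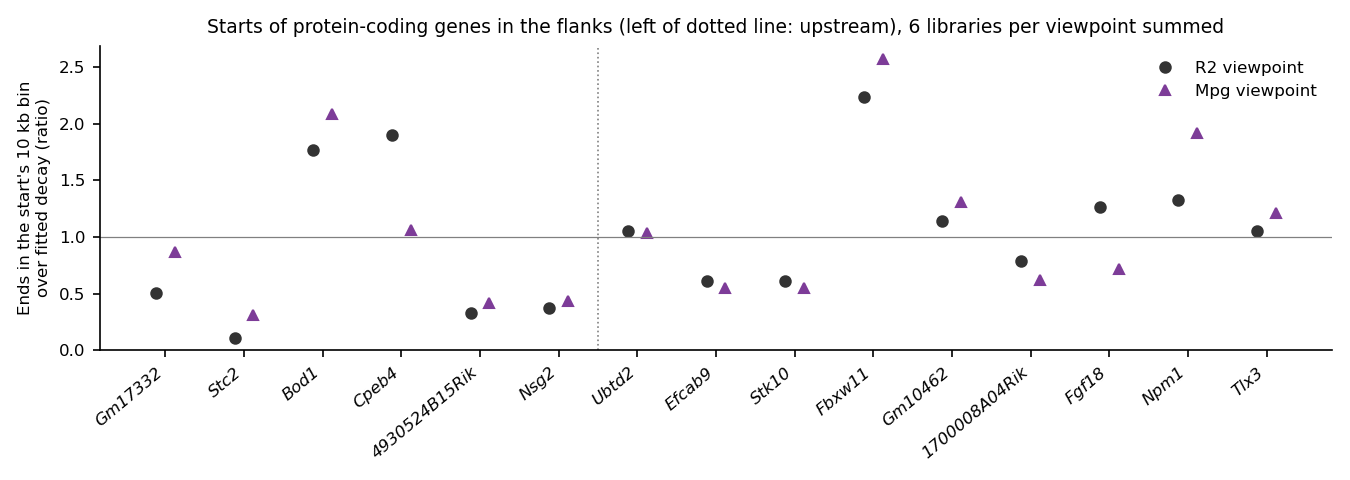
Ratio of fragment ends in the 10 kb bin of each protein-coding gene start to the fitted distance decay, for 6 upstream and 9 downstream genes, with R2 and *Mpg* libraries summed separately over 6 libraries. *Fbxw11* stands highest for both viewpoints, *Bod1* and *Cpeb4* lead the upstream flank and *Stc2* is lowest.

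Bins of 10 kb were compared between genotypes with the quasi-likelihood test of edgeR, relative to all chromosome 11 ends. From R2, no flank bin of 98 upstream and 96 downstream passed in either direction. The bins hold few ends, and even the log2 change of -1.10 ± 0.35 (SE) in the bin from 31740001 did not pass, so the absence of calls does not show that bins were alike. At an unadjusted p under 0.05, 1 was higher and 8 were lower in D3839, where 56 and 234 of all 2597 bins tested were. DESeq2 called 0 flank bins. After adjustment, 0.308% of the 2597 bins over the chromosome were called higher and 0.0385% lower. The median log2 change was -0.40 upstream and -0.44 downstream, against -0.72 over all bins tested. With the library size taken from ends outside the core, the medians turned to 0.24 and 0.23, with 59 upstream and 62 downstream bins positive, and with TMM normalization they were -0.024 and -0.052. Over all bins tested, the median was -0.065 with the outside library size and -0.34 with TMM.

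From *Mpg*, 1 bin rose and 3 fell in D3839. The background was 0.222% of 4051 bins called higher and 0.247% called lower. The bin that rose lies in *Cpeb4*, from 31790001 to 31800000, with 0.117%, 0.115% and 0.0873% of ends in WT and 0.374%, 0.186% and 0.192% in D3839 (log2 1.23 ± 0.32 SE, edgeR adjusted p = 0.0274). Its call rests on the high D3839 replicate 1: without it the log2 change was 0.83 with an edgeR adjusted p of 0.554, and without WT replicate 3 it was 1.11 with 0.0868. The 3 bins that fell lie in *Sh3pxd2b*, at the near edge of the downstream flank. The bin from 32260001 held 0.366%, 0.402% and 0.301% in WT and 0.163%, 0.173% and 0.114% in D3839 (log2 -1.25 ± 0.27 SE, edgeR adjusted p = 0.00179). Those from 32270001 (log2 -1.21 ± 0.28 SE, edgeR adjusted p = 0.00573) and 32300001 (log2 -1.59 ± 0.38 SE, edgeR adjusted p = 0.00595) fell similarly, and WT and D3839 overlapped in none.

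These calls of lower bins were lost when ends outside the core gave the library size, with log2 changes of -0.81, -0.78 and -1.14 and edgeR adjusted p of 0.387, 0.493 and 0.357, while the *Cpeb4* bin then rose by 1.68 (edgeR adjusted p = 0.000151). Each call was also lost without 1 of the libraries: 32260001 without D3839 replicate 3 (log2 -1.08, edgeR adjusted p = 0.0609), 32270001 without D3839 replicate 2 (log2 -1.17, edgeR adjusted p = 0.0562) and 32300001 without WT replicate 2 (log2 -1.14, edgeR adjusted p = 0.412). The sign of each of the 4 bins stayed the same in all 13 settings run.

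In 100 kb windows, an alternative added after the data were seen, the nearest windows of both flanks fell for *Mpg*. The upstream window next to the locus, from 31970001, fell by 0.66 on the log2 scale (± 0.12 SE, edgeR adjusted p = 0.000649) and the trough window from 31870001 fell by 0.84 (± 0.17 SE, edgeR adjusted p = 0.00289). Downstream, the window from 32250001, which holds most of *Sh3pxd2b*, went from 2.06%, 2.52% and 1.79% of ends in WT to 1.18%, 1.12% and 1.12% in D3839 (log2 -0.90 ± 0.14 SE, edgeR adjusted p = 7.09e-06). The windows from 32350001 (log2 -0.75 ± 0.17 SE, edgeR adjusted p = 0.00677) and 32450001 (log2 -0.68 ± 0.17 SE, edgeR adjusted p = 0.0185) fell as well, and no window rose. Over the chromosome, 1.1% of 1095 windows were called lower and 0.0913% higher.

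The 3 windows of the elevation were not called. The window from 31570001, with the start of *Bod1*, had a log2 change of -0.34 ± 0.13 (SE, edgeR adjusted p = 0.271). The window from 31670001 had a log2 change of 0.21 ± 0.12 (SE) and the window from 31770001, with the whole of *Cpeb4*, 0.078 ± 0.15 (SE), neither of which passed (edgeR adjusted p = 0.480 and 0.885). With the library size taken from ends outside the core, the window from 31670001 rose by 0.63 ± 0.14 (SE, edgeR adjusted p = 0.0148) and no window fell. That scaling, TMM normalization and DESeq2 each gave 0 falls. Without D3839 replicate 1, 1 fall passed, without D3839 replicate 2 there were 2 and without D3839 replicate 3 there were 3. The window from 32250001 passed with each of the 6 libraries left out in turn, at log2 changes of -1.01 to -0.76. For the window from 32350001, which lost its call without any of the D3839 libraries, the log2 change lay between -0.83 and -0.69.

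From R2, no 100 kb window passed, with 4 at an unadjusted p under 0.05 in edgeR, all lower, and 0 called by DESeq2. Over the chromosome 0.0951% of 1052 windows were called higher and 0.76% lower, and 4 were higher and 149 lower at an unadjusted p under 0.05. All 10 upstream windows and 8 of 10 downstream windows had a negative log2 change, with medians of -0.51 and -0.46, against -0.85 over all windows tested. With the library size taken from ends outside the core, 7 of 10 upstream and 10 of 10 downstream windows had a positive log2 change, with medians of 0.17 and 0.23. Over all 1052 windows tested, 449 were positive on that scale and the median was -0.19. The window of the elevation, from 31670001, stood at -0.48 ± 0.16 (SE, edgeR adjusted p = 0.139).

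Whether the genotype effect differed between *Mpg* and R2 was tested as an interaction with sample as a factor. No flank window passed: edgeR called 0 in either direction, with 1 upstream and 0 downstream at an unadjusted p under 0.05, DESeq2 called 0, and over the chromosome the share was 0.0% of 1170 windows in both directions. With the library size from outside the core, no flank window passed either. The median difference then went from 0.032 to -0.22 upstream and from -0.31 to -0.56 downstream. On that scale the windows from 31970001, 32250001, 32350001 and 33050001 were below 0 at an unadjusted edgeR p of 0.0376, 0.0343, 0.0167 and 0.0365. A difference between the viewpoints in how single flank windows change is therefore not shown.

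**Figure D4:**
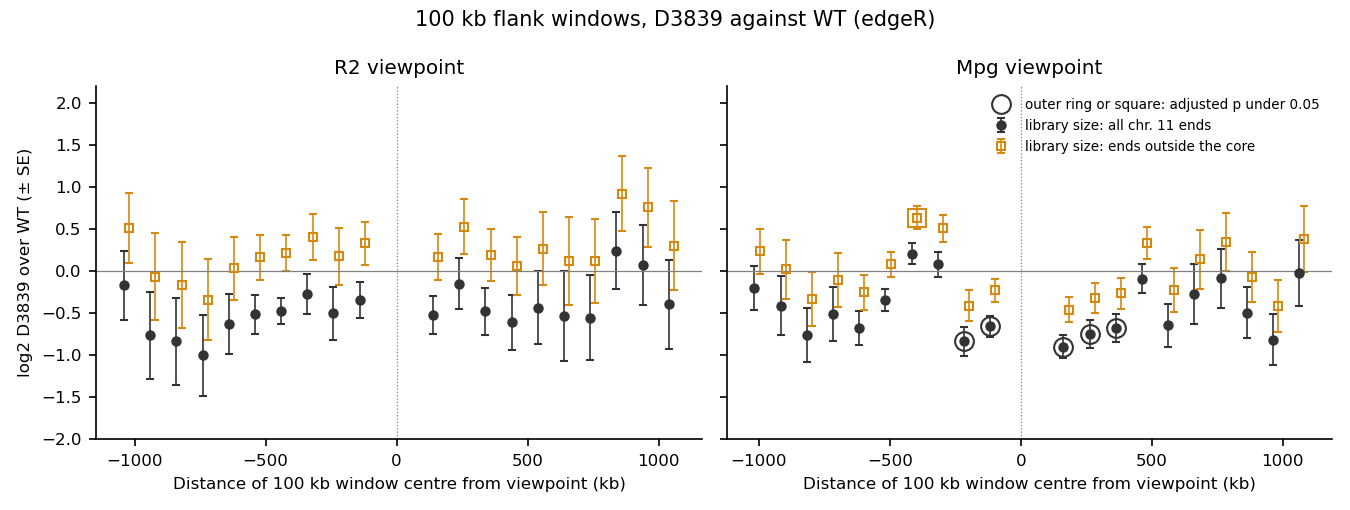
Log2 change of D3839 over WT with its standard error for each 100 kb flank window, against distance of the window from the viewpoint in kb, for R2 (left) and *Mpg* (right), with the library size from all chromosome 11 ends (circles) or from ends outside the core (squares). Outer marks show an adjusted p under 0.05. For *Mpg*, 5 near windows are marked below 0 on the first scale and 1 upstream window above 0 on the second.

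The share of chromosome 11 contacts that touched a flank was higher from the *Mpg* promoter than from R2 in every replicate, for both flanks. Within a replicate, the upstream share was higher by 3.46 to 6.74 percentage points and the downstream share by 2.17 to 5.07, means of 4.97 and 3.26 over 6 replicates (two-sided exact sign-flip p = 0.03125 for each, the smallest that 6 allow, adjusted p = 0.0781 over 10 tests). With all contacts that touched the core left out of flank count and total, all 6 replicates were again higher from *Mpg*. The ratio of *Mpg* to R2 was then smaller. Upstream it went from 1.70 to 1.34 in WT and from 1.84 to 1.24 in D3839, and downstream from 2.09 to 1.62 and from 1.75 to 1.16. Decay from *Mpg* was also steeper in all 6, by a mean of 0.14 upstream and 0.40 downstream (exact sign-flip p = 0.03125 each, adjusted p = 0.0781).

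In WT, edgeR called 11 bins of 10 kb higher from *Mpg* than from R2 and none lower, 7 upstream and 4 downstream, and DESeq2 called the same numbers. Background was 0.604% of 3974 bins called higher and 0.327% lower, and no flank bin was lower even at an unadjusted p under 0.05 in edgeR, and DESeq2 called 0 lower. The clearest upstream bin, from 32060001 at the edge of the flank, held 0.605%, 0.808% and 0.582% of *Mpg* ends and 0.201%, 0.165% and 0.171% of R2 ends (log2 1.88 ± 0.35 SE, edgeR adjusted p = 2.88e-05), and passed in all 9 settings run. Next were the bins from 31840001 (log2 2.08, edgeR adjusted p = 0.0154) and from 31950001 at the end of *Nsg2* (log2 2.50, edgeR adjusted p = 0.0197). Downstream, 3 bins of *Sh3pxd2b* led, from 32270001 (log2 2.00, edgeR adjusted p = 0.00165), 32300001 (log2 2.25, edgeR adjusted p = 0.0112) and 32320001 (log2 2.66, edgeR adjusted p = 0.0150). The count of 11 fell to 2 without WT replicate 1, 5 without WT replicate 2 and 3 without WT replicate 3, and to 2 with the library size from outside the core.

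In D3839, 4 bins were higher from *Mpg*, all upstream, with 0 called by DESeq2. The background was 0.474% of 2955 bins called higher and 0.305% lower. They were the bins from 32050001 (log2 1.45, edgeR adjusted p = 0.00342), 31830001 at the end of *Cpeb4* (log2 2.55, edgeR adjusted p = 0.00874), 31620001 (log2 1.80, edgeR adjusted p = 0.0256) and 32060001 (log2 1.11, edgeR adjusted p = 0.0464). Downstream, edgeR called 0, with 17 higher at an unadjusted p under 0.05. The count of 4 fell to 1 without D3839 replicate 2, to 0 without D3839 replicate 3 and to 0 with the library size from outside the core.

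In 100 kb windows, 8 were higher from *Mpg* in WT, 4 in each flank, where 0.886% of 1129 windows were called higher and 0.354% lower. In D3839, 10 were higher, 6 upstream and 4 downstream, against a background of 1.95% of 972 windows higher and 0.206% lower. In WT the nearest windows had the highest log2 differences, 1.54 ± 0.21 (SE) upstream and 1.46 ± 0.21 (SE) downstream. In D3839 the nearest upstream window was again highest, at 1.23 ± 0.13 (SE), but downstream the window from 32550001, with most of *Fbxw11*, stood at 1.47 ± 0.22 (SE) and the nearest at 1.11 ± 0.15 (SE). The count of 8 fell to 0 without WT replicate 1 and 2 without WT replicate 2. With the library size from outside the core, 4 were called in WT and 0 in D3839.

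By group mean, the other end of a flank contact lay most often in the same flank. D3839 replicate 2 of R2 was an exception, with 40.3% in the core against 35.7% in the same flank upstream and 34.2% against 30.9% downstream. Of upstream contacts from R2, 30.6%, 33.2% and 29.9% reached the core in WT and 37.1%, 40.3% and 34.2% in D3839, means of 31.2% ± 1.73 and 37.2% ± 3.03. Of upstream contacts from *Mpg*, 30.0%, 27.4% and 25.3% did in WT and 32.8%, 38.1% and 30.6% in D3839, means of 27.6% ± 2.34 and 33.8% ± 3.87. The genotypes did not overlap for either viewpoint (exact permutation p = 0.1 each, adjusted p = 0.267 over 16 tests). They did overlap where contacts with partners elsewhere were left out, at 37.7% to 45.2% in WT and 41.5% to 50.3% in D3839 from R2 and at 31.6% to 40.0% and 35.4% to 46.2% from *Mpg* (exact permutation p = 0.3 and 0.5). With each fragment pair counted once, they overlapped for R2 (exact permutation p = 0.2) and not for *Mpg* (exact permutation p = 0.1). Of downstream contacts, the core took 29.7% in WT and 30.1% in D3839 from R2 and 27.0% and 27.9% from *Mpg*, and the genotypes overlapped (exact permutation p = 1.0 and 0.7).

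Partners elsewhere on chromosome 11 made up a smaller share in D3839, though not past the threshold after adjustment. They were 23.3% ± 3.06 of upstream contacts in WT and 18.0% ± 1.66 in D3839 from R2, and 22.9% ± 2.74 and 15.6% ± 1.96 from *Mpg* (exact permutation p = 0.1 each, adjusted p = 0.267). For downstream contacts from R2 they went from 29.5% to 24.6% (exact permutation p = 0.1), and from *Mpg* from 26.2% to 23.8% with overlap (exact permutation p = 0.3). The same flank took 42.9% and 41.1% of upstream contacts from R2 in WT and D3839 and 44.9% and 47.3% from *Mpg*, with overlap in both.

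Contacts that joined the flanks to each other were rare. They were 2.63% ± 0.486 of upstream contacts from R2 in WT and 3.69% ± 1.04 in D3839. From *Mpg* they were 5.15%, 4.69% and 4.22% in WT and 2.84%, 4.15% and 3.01% in D3839, and the genotypes did not overlap (exact permutation p = 0.1, adjusted p = 0.267). As a share of downstream contacts from *Mpg*, the same contacts overlapped, at 7.28% ± 0.745 and 6.60% ± 1.53 (exact permutation p = 0.6).

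**Figure D5:**
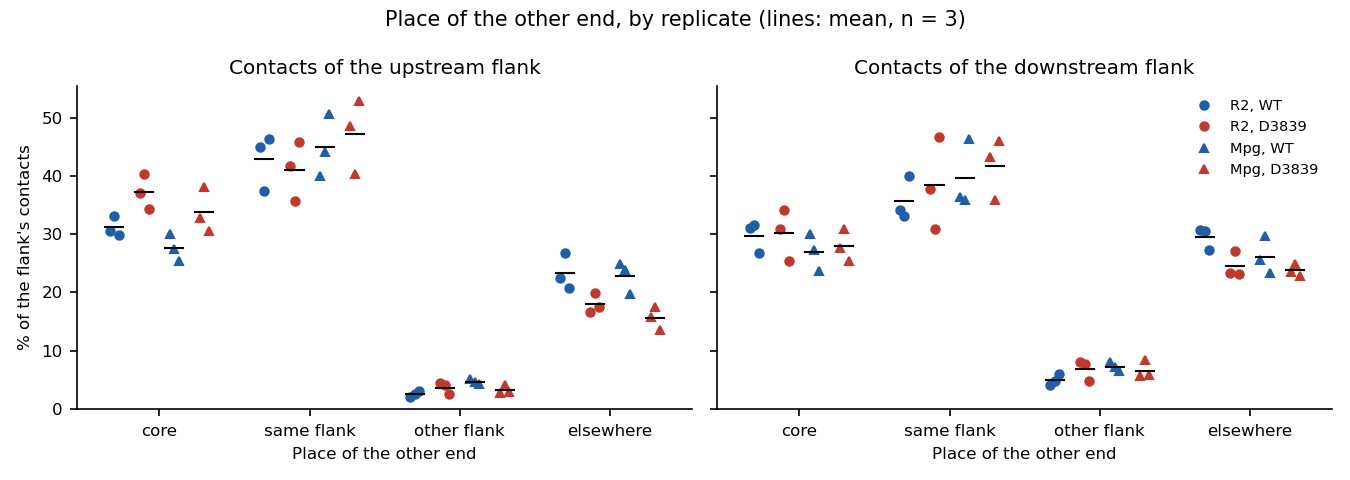
Percent of the contacts of the upstream flank (left) and the downstream flank (right) whose other end lies in the core, in the same flank, in the other flank or elsewhere on chromosome 11, for each library, with lines at the mean of 3 replicates. Circles are R2, triangles *Mpg*, and the core share of the upstream flank averages 31.2% in WT and 37.2% in D3839 for R2 and 27.6% and 33.8% for *Mpg*.

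Much of the same-flank share was very local: 66.5% to 85.9% of those pairs lay within a single 10 kb bin. With such pairs left out, the core share of upstream contacts was 45.2% ± 1.09 in WT and 53.2% ± 1.19 in D3839 from R2, and 41.0% ± 1.50 and 51.3% ± 0.774 from *Mpg*. The core was then the leading partner by group mean. Of upstream R2 contacts in WT, partners elsewhere on chromosome 11 took 33.6% and the same flank 17.4%. Of downstream R2 contacts in WT, the core took 41.2% and partners elsewhere 40.9%. In the elevated window from 31670001, the R2 libraries of the genotypes were apart. Of its contacts, 30.4%, 29.5% and 29.2% reached the core in WT and 39.5%, 43.3% and 41.9% in D3839. From *Mpg*, its libraries overlapped, at 33.7%, 24.3% and 26.1% in WT and 31.6%, 36.7% and 29.3% in D3839. Among the contacts that left the window, the *Mpg* libraries were apart too, with 38.8% to 50.3% reaching the core in WT and 55.5% to 57.6% in D3839. The neighbouring window from 31770001 was similar from R2, with 32.2%, 24.7% and 30.3% of its contacts reaching the core in WT and 45.9%, 37.3% and 35.2% in D3839. The third window of the elevation, from 31570001, overlapped from R2, at 20.4% to 38.7% in WT and 24.0% to 35.7% in D3839. Windows nearer to the locus were apart from *Mpg* as well, at 19.2% to 20.6% in WT and 25.9% to 33.8% in D3839 for the window from 31870001, and at 27.5% to 31.7% against 32.3% to 42.3% for that from 31970001. From R2, both of these windows overlapped, the window from 31870001 at 15.8% to 42.1% in WT and 13.6% to 26.0% in D3839. From *Mpg*, the windows from 31570001 and 31770001 overlapped too. Among the contacts that left the window, that from 31770001 was apart from *Mpg*, at 36.3% to 40.6% in WT and 47.9% to 52.6% in D3839. By this measure that from 31570001 still overlapped. Downstream, the window from 32450001 was apart by it from *Mpg*, at 38.5% to 40.2% and 47.1% to 50.7%, and that from 32250001 overlapped. These windows were picked after their levels were seen, so no test is given.

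The partners of flank contacts within the core are given next. The core was split at annotated gene limits. The stretches were the upstream genes (56.5 kb), *Mpg* to the end of *Nprl3* (41.2 kb), the globin genes (33.17 kb) and the stretch past *Hbq1a* (49.13 kb). The *Mpg* to *Nprl3* stretch holds most of the enhancers. It also holds the R2 viewpoint and, at its edge, the *Mpg* viewpoint. The part of nearness to a viewpoint in these shares was not tested. From R2, upstream contacts in WT met the *Mpg* to *Nprl3* stretch in 52.0% ± 3.78 of cases and the globin genes in 29.0% ± 2.61, the upstream genes in 7.85% ± 2.89 and the stretch past *Hbq1a* in 11.2% ± 3.31. From *Mpg*, they met the *Mpg* to *Nprl3* stretch in 41.2% ± 1.90, the upstream genes in 32.1% ± 0.656 and the globin genes in 8.91% ± 2.40. Contacts of the core with the rest of chromosome 11 had the same leading stretches in WT. From R2 these contacts stood at 57.5% ± 1.40 for the *Mpg* to *Nprl3* stretch and 29.8% ± 0.636 for the globin genes. The upstream genes stood at 5.46% ± 0.328 and the stretch past *Hbq1a* at 7.25% ± 1.63. In each WT replicate of R2, upstream flank contacts met the *Mpg* to *Nprl3* stretch less often than these did, and the stretch past *Hbq1a* more often. That difference was not tested. From *Mpg*, contacts of the core with the rest of chromosome 11 stood at 39.0% ± 1.82 for the *Mpg* to *Nprl3* stretch, 30.3% ± 1.45 for the upstream genes and 11.1% ± 2.92 for the globin genes.

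Downstream contacts in WT met the *Mpg* to *Nprl3* stretch in 48.3% ± 1.56 from R2 and 37.3% ± 4.60 from *Mpg*, and the globin genes in 23.8% ± 4.91 and 8.40% ± 0.973. The difference between the flanks in partner was tested within replicates for 8 stretches and viewpoints. None passed, with exact sign-flip p from 0.0625 to 0.5 and adjusted p from 0.25 to 0.5. The smallest p was that of the stretch past *Hbq1a* from *Mpg*, which upstream contacts met less often by 4.01 percentage points on average, in 5 of 6 replicates (exact sign-flip p = 0.0625). The mean difference was larger for the *Mpg* to *Nprl3* stretch from R2, at 5.73 points in the other direction (exact sign-flip p = 0.125). Between genotypes, 5 of 16 stretches by flank and viewpoint did not overlap (exact permutation p = 0.1 each, adjusted p = 0.32 over 16 tests). Upstream contacts with the upstream genes stood at 7.85% in WT and 12.0% in D3839 from R2 and at 32.1% and 29.3% from *Mpg*. Upstream contacts from *Mpg* with the *Mpg* to *Nprl3* stretch stood at 41.2% and 44.7%, and those with the stretch past *Hbq1a* at 17.8% and 15.3%. Downstream contacts from *Mpg* with the globin genes stood at 8.40% and 13.3%. The first 4 of these shifts ran the same way in contacts between the core and the rest of chromosome 11, also without overlap (exact permutation p = 0.1 each), so they were not particular to the flanks. There, the upstream genes went from 5.46% to 8.24% from R2 and from 30.3% to 25.8% from *Mpg*. From *Mpg*, the *Mpg* to *Nprl3* stretch went from 39.0% to 49.6% and the stretch past *Hbq1a* from 19.5% to 12.0%. The globin genes from *Mpg* also rose there, from 11.1% to 12.6%, but with overlap (exact permutation p = 0.4). In upstream contacts from *Mpg* they went from 8.91% to 10.7%, again with overlap (exact permutation p = 0.5).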

How the data were processed

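Contacts of 12 libraries (2 viewpoints in 3 WT and 3 D3839 samples, grouped by the sample labels) were analysed from tables that the authors deposited. The authors made these counts of unique contacts per fragment pair (NlaIII, chromosome 11, mm9) with Trim Galore, Bowtie and CCseqBasic by the methods and the submitters' processing notes, and deposited them without normalization. Their filters took out spurious ligations, PCR duplicates and fragments of other capture probes, and reads needed 2 or more reporters. All 88602 fragments named matched the mm9 digest, and 7179 lie in the flanks.

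Ends were placed by fragment midpoint. Shares, ratios, slopes and partners were compared by two-sided exact permutation tests, or exact sign-flip tests within samples. For bins with at least 10 ends, edgeR 4.0.16 (R 4.3.3) gave the test (quasi-likelihood, library size as all chromosome 11 ends), with the Benjamini-Hochberg adjustment over all bins tested and a threshold of 0.05. Viewpoints were compared with sample as a factor. DESeq2 1.42.0, TMM, other bin sizes, filters, denominators and left-out replicates were alternatives, and the windows of 100 kb and the interaction were added after the data were seen. Python 3.11.15, numpy 2.4.6 and pandas 2.3.3 were used, and the statistics were tested on simulated data.

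Named bins were the 3 with the smallest p per flank and direction past the threshold without overlap, and named genes those in such bins or with the highest or lowest ratio of their start bin to the decay. The bin from 31740001, its neighbour, the bin from 32530001 and the fragments printed were chosen after their values were seen. Members and lists were chosen with earlier results of these data known. P-values measure the spread between samples that the labels call biological replicates. Replicate numbers did not pair the samples by the check made here.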

Additional observations from a re-analysis of the deposited data

Results flagged for a closer look

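The log2 ratio of downstream over upstream fragment ends differed between viewpoints in opposite directions in the 2 genotypes over all flank ends. *Mpg* minus R2 was 0.41, 0.20 and 0.33 in WT replicates 1 to 3, so that *Mpg* was less upstream-weighted than R2 in each. In D3839 it was -0.14, -0.069 and -0.080, so that *Mpg* was more upstream-weighted in each. The D3839 side changed with the ends used. At 200 to 1000 kb from the viewpoint, D3839 stood at 0.083, -0.035 and -0.075, a mean of -0.0091, with each fragment pair counted once 2 of 3 D3839 replicates were positive, and without pairs in 1 bin 1 of 3 was, while WT was positive in 3 of 3 in each. The difference between the genotype means was -0.41 (exact permutation p = 0.1, the smallest that 3 against 3 allow, adjusted p = 0.143 over 10 tests). The library kit also differed between genotypes, and its part cannot be told apart.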

How the results depend on the processing

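An alternative left all contacts that touched the core out of flank count and total. The D3839 minus WT flank share difference then turned to 1.62 percentage points upstream and 1.81 downstream for R2 and to 0.443 upstream for *Mpg*. The R2 ratio of downstream over upstream ends turned to -0.000205 with each fragment pair counted once and to -0.033 without pairs in 1 bin, where the upstream R2 slope difference was 0.014. The upstream *Mpg* slope difference was -0.084 between 200 and 1000 kb. The core share of downstream R2 contacts turned to -0.069 with pairs counted once and to -2.24 without contacts elsewhere, and the same-flank share of upstream *Mpg* contacts then turned to -2.18. Leaving out 1 replicate at a time gave, for D3839 minus WT in percentage points, -4.52 to 0.853 for the same-flank share of upstream R2 contacts and -0.413 to 5.87 for *Mpg*, -1.43 to 6.41 and -0.0351 to 5.53 downstream, and -1.67 to 2.77 (R2) and -0.684 to 2.46 (*Mpg*) for the downstream core share. The causes were not tested.

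Counts of 10 kb bins called were as follows. For R2, D3839 against WT, 2 were lower in 5 kb bins and 0 to 1 with a replicate left out. For *Mpg*, 0 were higher with a filter of 1 count, in 5 kb bins, in 20 kb bins and without pairs in 1 bin, and 0 to 1 with a replicate left out. For *Mpg*, 0 were lower with TMM or the library size from outside the core, 5 in 20 kb bins or with such pairs counted as 1 end, and 6 without them. For *Mpg* against R2 in WT, 6 were higher with TMM or in 5 kb bins, 2 with the outside library size or a filter of 1 count, 17 without pairs in 1 bin and 2 to 5 with a replicate left out. In D3839, 0 were higher with TMM, the outside library size or DESeq2, 2 with a filter of 1 count, 1 in 5 kb bins, 13 in 20 kb bins, 9 with pairs in 1 bin counted as 1 end and 0 to 3 with a replicate left out. For 100 kb windows and *Mpg*, D3839 against WT, 1 was higher with the outside library size or TMM and 2 with DESeq2, 0 were lower under these 3, and 1 to 5 with a replicate left out. For *Mpg* against R2, 4 (WT) and 0 (D3839) were higher with the outside library size, 5 in D3839 with TMM or DESeq2, and 0 to 6 in WT with a replicate left out. Fewer samples were fitted in the latter, and otherwise the causes were not tested.

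The replicate block raised the 10 kb bins lower in D3839 for *Mpg* from 3 to 6 and the windows of 100 kb from 5 to 6, and left 1 bin higher for *Mpg* and 0 for R2 in both directions. Deviations of same-numbered samples correlated at -0.0024 to 0.063 for R2 and 0.034 to 0.077 for *Mpg* in 10 kb bins, and at 0.0575 to 0.102 for R2 and 0.0155 to 0.0428 for *Mpg* in 100 kb windows. Not every pair passed 0.1, so the numbers were not taken to pair the samples. Of the values for named bins and windows under alternatives, 154 kept their direction and side of the threshold, 101 lost the call and 0 reversed.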
